A study of Mus musculus with 6 samples.

Results

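The glutathione peroxidases are the 8 mouse genes Gpx1 to Gpx8. All 8 were found by exact name among the 37578 genes of the deposited expression table, and all 8 passed the filter on low counts that left 15816 genes for testing. They were followed through the epididymis, the duct in which sperm mature, in clear cells, the epithelial cells that acidify its lumen with the vacuolar proton pump. The cells came from untreated mice aged 12 weeks that all carry the same transgene, in which the promoter of ATP6V1B1, a proton pump subunit gene, drives EGFP, and were sorted on that fluorescence 2 times in succession. No sample comes from mice without the transgene, and the sort rests on the activity of that single promoter. The 3 groups are regions of the duct: caput lies nearest the testis, corpus follows and cauda is the far end. Each has 2 libraries, and each library pools 12 epididymides. Whether the pools within a region came from different mice is not labelled, so a p-value here reflects the spread among these libraries alone, which may be technical.

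Glutathione peroxidases typically, though not in every member, reduce hydrogen peroxide and lipid hydroperoxides with electrons from glutathione, which glutathione reductase then regenerates. In one set of members the catalytic residue is selenocysteine, which is encoded by an in-frame TGA codon and needs a dedicated translation machinery. In the other set a cysteine takes its place. Gpx1 is the widely expressed cytosolic enzyme, Gpx2 an epithelial form known from the gut, Gpx3 the secreted form known from plasma, and Gpx4 the enzyme that acts on membrane phospholipid hydroperoxides and is a structural protein of the sperm midpiece. Gpx5 is known as a protein secreted by the epididymis, Gpx6 was described in olfactory tissue, and Gpx7 and Gpx8 reside in the endoplasmic reticulum, where peroxide arises during disulfide formation.

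The codon at the catalytic position separates these sets, and it is shown because the members that changed most between regions fall on both sides of it. Each line gives 27 coding bases of the GENCODE M21 transcript, 5′ to 3′, with the catalytic codon in capitals.
Gpx1: aatgtcgcgtctctcTGAggcaccacg
Gpx2: aatgtggcgtcactcTGAggaacaact
Gpx3: aacgtagccagctacTGAggtctgaca
Gpx4: aacgtggcctcgcaaTGAggcaaaact
Gpx5: aatgtggctacctatTGCggtctgaca
Gpx6: aacgtggcatccttcTGTggcctgaca
Gpx7: aacgtagctagcgaaTGTggcttcaca
Gpx8: aacgtggctagtgacTGCcgcttcaca
The TGA codon stood in Gpx1 to Gpx4, where the annotation marks it as selenocysteine, and a cysteine codon (TGC or TGT) stood in Gpx5 to Gpx8. The codon had number 73 in Gpx3, Gpx5 and Gpx6, the secreted members, counted from the start codon.

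Reads assigned to genes came to between 18887128 and 24700717 per library. Levels below are the deposited RPKM, so that genes can be set side by side per length. RPKM are reads per kilobase of gene length, divided by the library total times a factor. That factor was 1.329 and 1.387 in caput, 0.957 and 0.925 in the corpus and 0.774 and 0.792 in the cauda. Fold changes are log2 values ± SE from edgeR's quasi-likelihood test on the counts, positive where the first region named is higher, with Benjamini-Hochberg adjustment over the 15816 genes and calls at an adjusted p under 0.05. The sorted cells' own markers were present in every library but unevenly. The 11 clear cell markers summed to 7718 and 7447 TMM-scaled CPM (reads scaled to library size, not to gene length) in caput, 2284 and 2680 in the corpus, and 840.5 and 1060 in the cauda. The 12 genes listed for principal cells of the distal or whole duct, the neighbouring secretory cells, ran the other way in their sum, from 8047 and 6707 CPM in caput to 84110 and 96550 in the corpus and 169400 and 158200 in the cauda. Of these 12 genes, 4 were higher and 8 lower in caput than in cauda. The markers of basal cells, leukocytes, stroma and vessels, and red blood cells summed to less than either of these lists in every library. The sums were 62.7 to 307.3 CPM for 7 basal cell genes and 9.43 to 24.3 for 8 leukocyte genes. They were 150.3 to 631.9 for 7 stromal and vascular genes and 3.43 to 43.3 for 5 red blood cell genes. In cauda the stromal and vascular sum was 427.7 and 506.4 CPM, beside 840.5 and 1060 for the clear cell genes. Dcn alone was at 329.6 and 376.6 CPM there, and at 570.5 and 583.2 CPM in caput. The caput sum of this list was 584.2 and 631.9 CPM, above that of cauda. Col1a1, Col1a2 and Col3a1 went the other way, higher in both cauda libraries than in both caput libraries. Of the 7 genes, 1 was called higher and 3 lower in caput than in cauda, beside 33.9% and 33% of all genes tested. Library totals in place of TMM moved the median log2 fold change of all genes from 0.04 to 0.9 in caput against cauda, from 0 to 0.27 in corpus against cauda and from 0.04 to 0.63 in caput against corpus, so directions below are relative to the TMM scale. In a sorted population measured in bulk, fewer cells of a type and less RNA per cell cannot be told apart.

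The family as a whole was dominated by Gpx3, and its make-up differed between caput and the rest of the duct. Summed over the 8 genes, the level was 3071 and 3524 RPKM in the caput libraries, 17749 and 18947 in the corpus and 28847 and 32311 in the cauda. Gpx3 supplied 61.2% and 50.6% of that sum in caput, 97.8% in both corpus libraries and 96.6% and 97.1% in the cauda. Gpx5 supplied 27.7% and 40.0% in caput, 0.004% and 0.007% in the corpus and 1.24% and 1.10% in the cauda. Caput was therefore the region in which a cysteine member made up a large share of the family's transcripts. The members with a TGA codon held 70.8% and 58.6% of the summed level in caput, against 99.3% in both corpus libraries and 98.7% and 98.8% in the cauda. Counted as reads, the whole family took 0.683% and 0.817% of all reads in genes in caput. Its share was 3.04% and 3.14% in the corpus and 3.99% and 4.59% in the cauda.

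**Figure D1:**
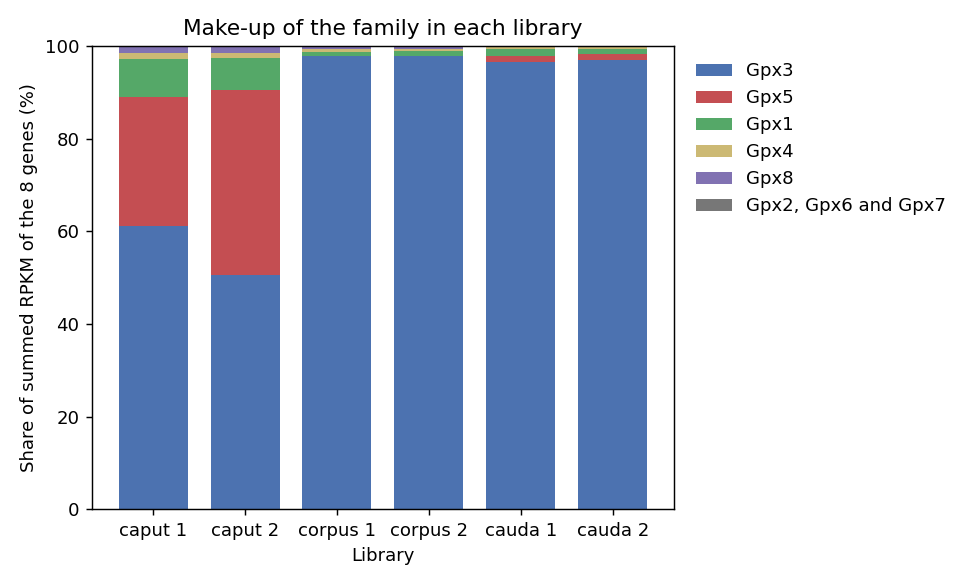
Share of the summed RPKM of the 8 genes (vertical axis, percent) taken by each gene in each of the 6 libraries (horizontal axis). Gpx3 fills 96.6% or more of every corpus and cauda bar, and Gpx5 fills 27.7% and 40.0% of the caput bars.

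Most members differed between regions. Between caput and cauda 2 were higher in caput (Gpx5 and Gpx8) and 4 lower (Gpx1, Gpx3, Gpx4 and Gpx6). That is 75% of the family against 66.9% of all genes tested, of which 33.9% were higher and 33% lower. Between corpus and cauda 2 were higher in corpus (Gpx2 and Gpx8) and 5 lower (Gpx1, Gpx3, Gpx4, Gpx5 and Gpx6). That is 87.5% against 35.4% of all genes, with 17.3% higher and 18% lower. Between caput and corpus 3 were higher in caput (Gpx1, Gpx5 and Gpx6) and 3 lower (Gpx3, Gpx4 and Gpx8). That is 75% against 65% of all genes, with 33.2% higher and 31.8% lower. The median log2 fold changes of the 8 genes were -0.14, -0.76 and -0.33 in that order, against 0.04, 0 and 0.04 over all genes tested. The median absolute changes were 1.82, 2.01 and 1.46 against 0.9, 0.41 and 0.85. The comparisons share libraries and are not independent. When any difference among the regions was tested, 7 of the 8 were called, all but Gpx7 (adjusted p = 0.498), and 75.1% of all genes were.

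**Figure D2:**
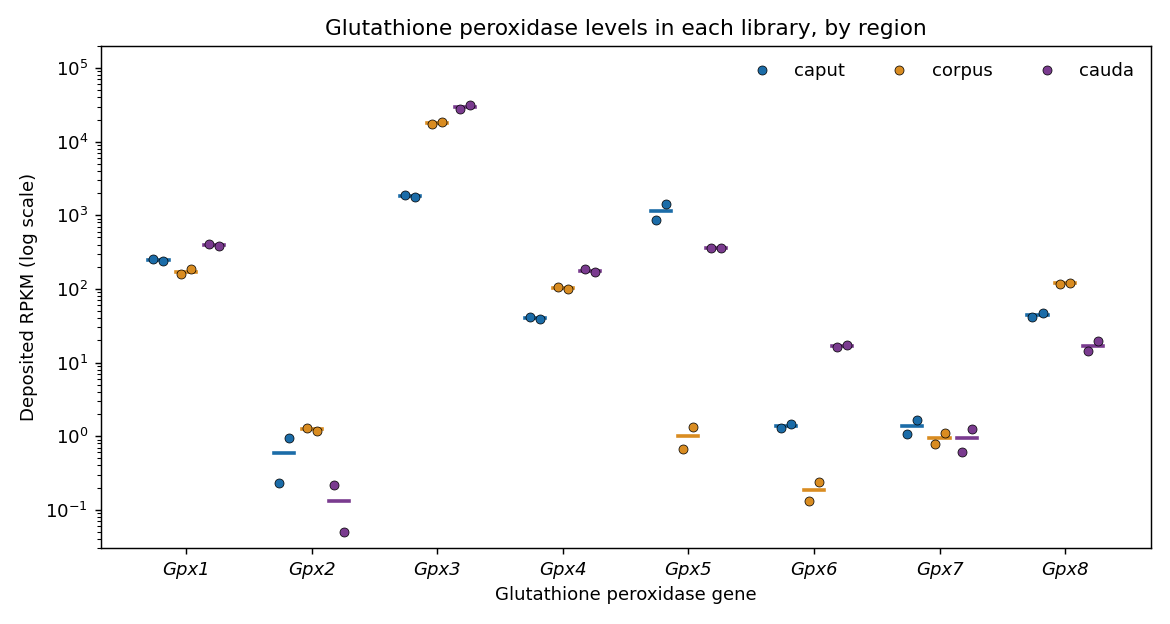
Deposited RPKM (vertical axis, log scale) of each glutathione peroxidase gene (horizontal axis) in the caput, corpus and cauda libraries; points are the 2 libraries of a region and bars their mean. Gpx3 lies far above the other members in corpus and cauda, Gpx5 drops to about 1 RPKM in corpus alone, and the libraries of the regions overlap for Gpx7.

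Among the secreted members, Gpx3 (ENSMUSG00000018339) increased along the duct. It measured 1878 and 1782 RPKM in caput, 17364 and 18535 in the corpus and 27864 and 31363 in the cauda. All libraries of a region lay apart from those of the others, and cauda was the highest. Gpx3 ranked between 4th and 7th of the 37578 genes in every library, caput included. It took 0.451% and 0.446% of all reads in genes in caput, 3.00% and 3.10% in the corpus and 3.89% and 4.49% in the cauda (95% exact intervals 0.448% to 0.453%, 0.443% to 0.449%, 2.993% to 3.009%, 3.090% to 3.105%, 3.885% to 3.901% and 4.479% to 4.495% in that order, which cover counting error only). Caput was lower than cauda by -4.08 ± 0.11 (adjusted p = 5.91e-09) and lower than corpus by -3.36 ± 0.10 (adjusted p = 2.42e-08). The step from cauda to corpus was smaller, at -0.73 ± 0.10 (adjusted p = 3.36e-04). Under library totals Gpx3 was still lower in caput, at -3.22 against cauda and -2.76 against corpus.

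The 3 genes most like Gpx3 in pattern were Slc16a1, a monocarboxylate transporter gene, Ces5a, a carboxylesterase gene known from epididymal secretion, and Akr1c19, an aldo-keto reductase gene. Likeness was the root mean square difference of log2 CPM, centred on each gene's mean over the 6 libraries, and came to 0.113, 0.115 and 0.127. Ces5a averaged 199.7 RPKM in caput, 2138 in the corpus and 3175 in the cauda. Some principal cell genes had the same order of regions as Gpx3 and others the opposite one. Crisp1, a secreted sperm-coating protein gene of principal cells, measured 4376 and 3289 CPM in caput, 43170 and 54020 in the corpus and 76160 and 72410 in the cauda. Lcn5, a lipocalin gene of the same list, measured 179.7 and 151.4 CPM in caput and 0.582 and 0 in the cauda, and Defb1, Cldn10 and Spint4 were also higher in both caput libraries than in both cauda libraries. Foxi1, the transcription factor of proton-secreting cells, went the opposite way to Gpx3. It was at 2388 and 2187, 384 and 388, and 151 and 203.3 CPM in the order caput, corpus, cauda. All 11 clear cell genes were higher in caput than in cauda. Against corpus 10 were higher in caput and 1 lower. The latter was Car2, at 284.7 and 313.2 CPM in caput and 791.5 and 902.7 in the corpus. The part of these cell-type signals in the Gpx3 difference was not tested.

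**Figure D3:**
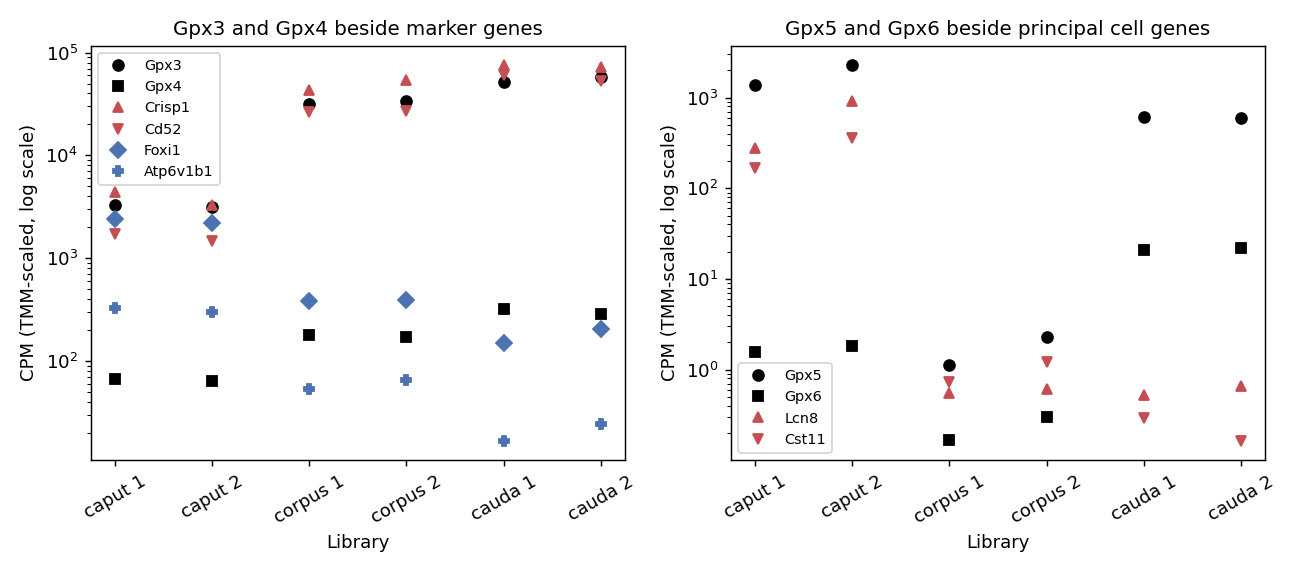
CPM (vertical axes, log scale) in each of the 6 libraries (horizontal axes) of Gpx3 and Gpx4 beside the principal cell genes Crisp1 and Cd52 and the clear cell genes Foxi1 and Atp6v1b1 (left), and of Gpx5 and Gpx6 beside the caput principal cell genes Lcn8 and Cst11 (right). Gpx3, Crisp1 and Cd52 are lowest in caput while Foxi1 is highest there. In cauda Gpx5 is at 608 and 604 CPM where Lcn8 and Cst11 are below 1 CPM. Adam7 and Rnase9 of the same caput list, not drawn, are at 5575 and 6079 and at 1231 and 1181 CPM in cauda. Lcn5, Defb1, Cldn10 and Spint4 of the list that holds Crisp1 and Cd52, not drawn, are higher in caput than in cauda.

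Gpx5 (ENSMUSG00000004344), the epididymal secreted form, was high at both ends of the duct and nearly absent between them. It measured 851 and 1410 RPKM in caput, 0.663 and 1.34 in the corpus and 358 and 356 in the cauda. The corpus values rested on 20 and 45 reads, against 46630 and 67626 in caput and 10446 and 11073 in the cauda. Gpx5 was therefore the 28th and 15th most abundant gene of the caput libraries per length, and between the 10365th and 12315th in corpus. Caput exceeded corpus by 10.05 ± 0.47 (adjusted p = 4.59e-05), and corpus was below cauda by -8.45 ± 0.46 (adjusted p = 2.29e-04). Without corpus 2 these became 10.67 and -9.07, and without corpus 1 they became 9.64 and -8.04. The difference between the ends was smaller: caput exceeded cauda by 1.60 ± 0.30 (adjusted p = 0.00733). That call was lost without cauda 1 (adjusted p = 0.0512) and was held narrowly without cauda 2 (adjusted p = 0.0499), with the change at 1.61 and 1.60. Under library totals it was 2.47 (adjusted p = 0.00186) and the excess over corpus was 10.65.

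The caput libraries differed in Gpx5, with 1.69 times as many CPM in caput 2 as in caput 1, whereas Gpx3 stood at 0.967 times. Of the 12 genes listed for principal cells of the caput, 11 were higher in caput 2 than in caput 1. Lcn8, a lipocalin gene, was 3.35 times, Lcn9 2.51 times and Cst11, a cystatin gene, 2.13 times as high in caput 2, whereas Adam7 was at 691 and 656 CPM and Rnase9 at 353 and 362. All 7 sperm genes were higher there as well, with Prm1, a protamine gene, at 6.44 times. So were all 7 stromal and vascular genes, 5 of 7 basal cell genes and 3 of 5 red blood cell genes. For leukocyte genes the count was 4 of 8, for clear cell genes 4 of 11 and for distal or whole duct principal cell genes 3 of 12. The share over all genes was not computed. Without caput 2 the Gpx5 excess of caput over cauda was 1.18 and over corpus 9.63. Of the 12 caput principal cell genes, 10 were higher and 2 lower in caput than in cauda. Their summed level was 2064 and 3950 CPM in caput, 8300 and 9037 in the corpus and 6812 and 7272 in the cauda, where Adam7 and Rnase9, the genes that were lower in caput, made up most of it. In cauda Lcn8 was at 0.524 and 0.654 CPM and Cst11 at 0.291 and 0.164, while Gpx5 there was at 608 and 604 CPM. The genes listed for principal cells of the distal or whole duct had their largest sums in cauda, as given above. The part of principal cell RNA in the Gpx5 values of any region was not tested.

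Gpx6 (ENSMUSG00000004341) shared the trough in corpus but was highest in cauda. It measured 1.30 and 1.45 RPKM in caput (54 and 53 reads), 0.131 and 0.236 in the corpus (3 and 6 reads) and 16.3 and 17.1 in the cauda (361 and 405 reads). No library of one region overlapped those of another. Caput was lower than cauda by -3.66 ± 0.21 (adjusted p = 3.94e-07) and higher than corpus by 2.80 ± 0.34 (adjusted p = 6.47e-05). Corpus was lower than cauda by -6.46 ± 0.29 (adjusted p = 5.38e-07). Under library totals and with the trend on gene length removed, caput stood at -2.81 and -2.96 against cauda and at 3.39 and 3.44 against corpus. The gene nearest in pattern was Chst8, a sulfotransferase gene, with a root mean square difference of 0.205, followed by Parp3 (0.383). For Gpx5 the closest of the genes compared, which averaged at least 10 CPM and were not predicted genes, was the beta-defensin gene Defb18 at 1.58, followed by the protamine gene Prm2 (2.34) and Hgfac (2.35).

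Gpx5 and Gpx6 are neighbours on chromosome 13, with 0 protein-coding genes between them in the RefSeq annotation of GRCm38.p6. Of the genes on either side, Trim27 measured 14.6 and 13.5 RPKM in caput, 18.4 and 19.4 in the corpus and 18.0 and 18.9 in the cauda, and the olfactory receptor gene Olfr1367 was at 0 in all 6 libraries. The 250 bases before each start site, from RefSeq on GRCm38.p6, are shown because both genes were lowest in corpus. Gpx1 was lowest in corpus too, with smaller changes. Capitals mark every match on either strand to AGAACA (an androgen receptor half-site), AGGAAG (PEA3, an ETS family factor), TGACNNNGC (the antioxidant response element core) or CCAAT.
Gpx5, chr13:21292687-21292936, minus strand: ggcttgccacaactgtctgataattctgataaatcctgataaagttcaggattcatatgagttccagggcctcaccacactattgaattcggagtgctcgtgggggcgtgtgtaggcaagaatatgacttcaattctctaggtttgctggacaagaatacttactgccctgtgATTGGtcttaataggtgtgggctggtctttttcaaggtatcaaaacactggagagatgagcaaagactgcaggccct
Gpx6, chr13:21311953-21312202, plus strand: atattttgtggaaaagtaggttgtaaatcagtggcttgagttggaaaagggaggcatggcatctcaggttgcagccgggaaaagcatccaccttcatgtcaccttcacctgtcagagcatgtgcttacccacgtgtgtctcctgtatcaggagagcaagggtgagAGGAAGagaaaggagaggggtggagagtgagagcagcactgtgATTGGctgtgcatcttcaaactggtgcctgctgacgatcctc
Both windows held CCAAT on the reverse strand, starting 77 bases before the start site in Gpx5 and 42 in Gpx6, a motif present in 33.8% of 32851 such windows. AGGAAG was found in Gpx6, 85 bases before the start, and is in 29.5% of windows. The letters of AGAACA (16.1% of windows) and TGACNNNGC (10.2%) were in neither. A match is a description of the letters and shows no binding.

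Gpx3, Gpx5 and Gpx6 are similar in sequence, and the reads were kept only where they had a unique position. The longest identical stretch was 40 bases between Gpx3 and Gpx5 transcripts, 35 between Gpx5 and Gpx6 and 32 between Gpx3 and Gpx6. In corpus 65 reads were assigned to Gpx5 and 9 to Gpx6 beside 1238070 to Gpx3, and whether any of them came from Gpx3 was not tested. In the GENCODE M21 annotation no exon of the 8 genes overlapped an exon of another gene.

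Among the intracellular members with a TGA codon, Gpx4 (ENSMUSG00000075706) followed Gpx3 in direction with smaller changes. It measured 41.2 and 38.7 RPKM in caput, 105 and 101 in the corpus and 187 and 168 in the cauda. The regions did not overlap, and the order was caput, corpus, cauda. Caput was lower than cauda by -2.22 ± 0.08 (adjusted p = 3.20e-08) and lower than corpus by -1.43 ± 0.08 (adjusted p = 4.96e-07), and corpus was lower than cauda by -0.79 ± 0.08 (adjusted p = 6.82e-05). Under library totals caput was lower by -1.36 against cauda and -0.84 against corpus, and both were called. The genes most like it were Rps25, a ribosomal protein gene (0.0618), Rabac1 (0.0632) and Cmas, a sialic acid activating enzyme gene (0.0687). Sperm cells also carry Gpx4, and the 7 sperm genes summed to 22.9 and 190.5 CPM in caput, 0.168 and 46.2 in the corpus and 23.2 and 75.1 in the cauda. Smcp alone was at 44.7 CPM in corpus 2 and at 20.25 and 70.99 in the cauda. Prm1, Tnp1, Tnp2 and Akap4 were at 0.291 CPM or less in every corpus and cauda library. Prm2 and Odf1 reached 1.69 and 3.49 CPM in the cauda. The part of sperm RNA in the Gpx4 values was not tested.

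Gpx1 (ENSMUSG00000063856) was the second most abundant member in corpus and cauda. It measured 255 and 242 RPKM in caput, 160 and 185 in the corpus and 407 and 386 in the cauda. Corpus was lower than cauda by -1.20 ± 0.09 (adjusted p = 9.56e-06) and caput higher than corpus by 0.47 ± 0.09 (adjusted p = 0.00119). Caput was lower than cauda by -0.74 ± 0.09 (adjusted p = 5.21e-05), but this direction depends on the scaling. Under library totals the change against cauda was 0.12 (adjusted p = 0.183), and with the trend on gene length removed it was 0.27 and called in favour of caput (adjusted p = 0.021). The excess over corpus became 1.06 and 1.40 under these settings. Mpi, a mannose phosphate isomerase gene (0.0641), Ccni (0.0655) and Myh14 (0.0905) were most like Gpx1 in pattern.

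Gpx2 (ENSMUSG00000042808) was the least abundant member in caput and cauda. Its RPKM were 0.229 and 0.947 in caput (8 and 29 reads), 1.30 and 1.17 in the corpus (25 and 25 reads) and 0.215 and 0.0504 in the cauda (4 reads and 1 read). Corpus exceeded cauda by 3.19 ± 0.89 (adjusted p = 0.0209), and this call was lost on leaving out any one of the corpus or cauda libraries (adjusted p 0.0581 to 0.162). Without cauda 1 the change was 4.48 and without cauda 2 it was 2.49. Caput differed by 2.05 ± 0.92 from cauda (adjusted p = 0.0734) and by -1.13 ± 0.70 from corpus (adjusted p = 0.18), neither of which passed. The difference from cauda was called without caput 1 (2.76, adjusted p = 0.00903), under library totals (2.90, adjusted p = 0.0159), with the length trend removed (2.87, adjusted p = 0.0183) and when lowly counted genes were kept (2.11, adjusted p = 0.0349). It was 0.71 without caput 2 (adjusted p = 0.534), 3.36 without cauda 1 (adjusted p = 0.0822) and 1.36 without cauda 2 (adjusted p = 0.33), none of which passed. The difference from corpus was called without caput 2 (-2.47, adjusted p = 0.016) and was -0.42 without caput 1 (adjusted p = 0.571), -0.54 under library totals and -0.37 with the length trend removed. Adh7, an alcohol dehydrogenase gene, was nearest in pattern at 0.485, followed by Pgf (0.514) and Slc1a5 (0.58).

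Of the members of the endoplasmic reticulum, Gpx8 (ENSMUSG00000021760) peaked in corpus and Gpx7 stayed low. Gpx8 measured 41.8 and 47.7 RPKM in caput, 118 and 122 in the corpus and 14.3 and 19.4 in the cauda, with no overlap between regions. Corpus exceeded cauda by 2.82 ± 0.14 (adjusted p = 1.87e-06), caput was lower than corpus by -1.48 ± 0.13 (adjusted p = 1.26e-05), and caput exceeded cauda by 1.34 ± 0.14 (adjusted p = 3.37e-05). Under library totals and with the trend on gene length removed, caput stood at -0.89 and -0.66 against corpus and at 2.20 and 2.22 against cauda, all called. Cauda was thus its lowest region, whereas it was the highest for Gpx1, Gpx3, Gpx4 and Gpx6. The nearest patterns were those of Gfra1, a receptor gene for glial cell line-derived neurotrophic factor (0.139), Qsox2, a sulfhydryl oxidase gene (0.219), and Gipc2 (0.229). Qsox2, whose product forms disulfides and releases peroxide, averaged 4.51 RPKM in caput, 11.2 in the corpus and 1.83 in the cauda.

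Gpx7 (ENSMUSG00000028597) measured 1.08 and 1.66 RPKM in caput, 0.770 and 1.10 in the corpus and 0.613 and 1.26 in the cauda, from 20 to 89 reads per library. The libraries of all regions overlapped, and none of the differences passed the test: 0.47 ± 0.44 for caput against cauda (adjusted p = 0.367), -0.01 ± 0.46 for corpus against cauda (adjusted p = 0.988) and 0.49 ± 0.44 for caput against corpus (adjusted p = 0.356). Misses of the threshold at these counts do not show equal levels. Under library totals caput exceeded cauda by 1.33 (adjusted p = 0.0226). Without cauda 2 the change was 1.09 for caput against cauda (adjusted p = 0.128) and 0.60 for corpus against cauda (adjusted p = 0.493). D2hgdh (0.218), Ckb, a creatine kinase gene (0.233), and Cd74 (0.237) were nearest to it in pattern.

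**Figure D4:**
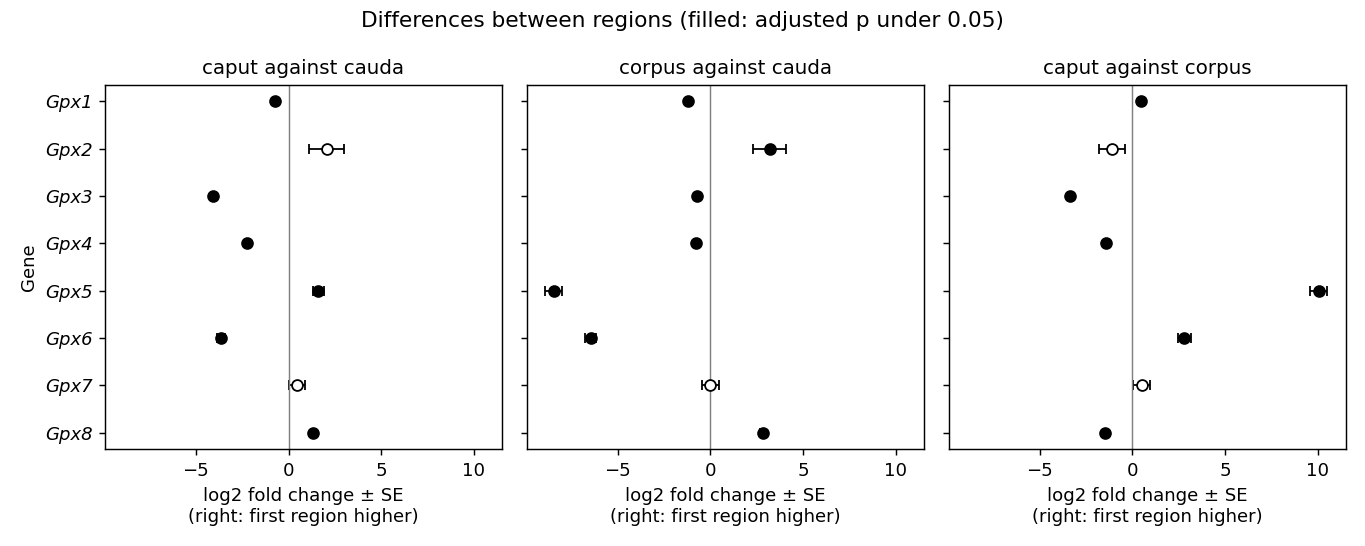
Log2 fold change ± SE (horizontal axes, positive where the first region is higher) of each glutathione peroxidase gene (vertical axis) in the 3 comparisons; filled points have an adjusted p under 0.05 by edgeR's quasi-likelihood test. Gpx5 spans the widest range, from -8.45 in corpus against cauda to 10.05 in caput against corpus, and the points of Gpx7 are open throughout.

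The enzymes that supply and recycle glutathione, the typical electron donor of the family, moved in both directions. Of 18 tested genes of 20 listed, 8 were higher and 7 lower in caput than in cauda (median 0.21), 4 higher and 5 lower in corpus than in cauda (median 0.07), and 9 higher and 7 lower in caput than in corpus (median 0.06). The called shares were 83.3%, 50% and 88.9% in that order, beside 66.9%, 35.4% and 65% of all genes tested. Of all genes, 33.9% were higher and 33% lower in caput than in cauda, 17.3% and 18% in corpus against cauda, and 33.2% and 31.8% in caput against corpus, with medians of 0.04, 0 and 0.04. Gclc, the catalytic subunit of the enzyme that starts glutathione synthesis, was higher in caput than in cauda by 0.77 ± 0.08 (adjusted p = 1.68e-05) and than in corpus by 1.25 ± 0.08 (adjusted p = 8.18e-07). Slc7a11, the cystine importer, was lower in caput, at -2.87 ± 0.17 against cauda (adjusted p = 4.43e-07) and -3.18 ± 0.17 against corpus (adjusted p = 3.14e-07). Ggct, a gamma-glutamylcyclotransferase gene, was lower in caput than in cauda by -3.66 ± 0.15 (adjusted p = 4.23e-08). Ggt1, which breaks down extracellular glutathione, had its minimum in corpus, as Gpx1, Gpx5 and Gpx6 did. It measured 6.32 and 5.13 RPKM in caput, 1.40 and 1.37 in the corpus and 18.1 and 14.2 in the cauda. Corpus was below cauda by -3.55 ± 0.18 for Ggt1 (adjusted p = 9.66e-07).

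The genes for selenium uptake and selenocysteine insertion, on which Gpx1 to Gpx4 depend, had called members in both directions. All 12 listed genes were tested: 2 were higher and 7 lower in caput than in cauda (median -0.29), 2 higher and 3 lower in corpus than in cauda (median -0.23), and 4 higher and 6 lower in caput than in corpus (median -0.23). That is 75%, 41.7% and 83.3% called, beside the 66.9%, 35.4% and 65% of all genes and their medians of 0.04, 0 and 0.04. Lrp2, an endocytic receptor that takes up selenoprotein P among many ligands, measured 1.39 and 1.12 RPKM in caput, 7.63 and 7.43 in the corpus and 20.8 and 21.4 in the cauda. Its caput level was below cauda by -4.14 ± 0.11 (adjusted p = 5.08e-09). Pstk, the kinase that prepares the selenocysteine tRNA, was below cauda in caput by -1.89 ± 0.12 (adjusted p = 5.85e-07). Lrp8, a receptor of selenoprotein P, was higher in caput than in corpus by 3.52 ± 0.46 (adjusted p = 1.18e-04), at levels under 1 RPKM in every library.

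Other selenoproteins also had called members in both directions. Of 14 tested genes (15 found of 19 listed), 7 were higher and 5 lower in caput than in cauda (median 0.73), 4 higher and 3 lower in corpus than in cauda (median 0.03), and 6 higher and 4 lower in caput than in corpus (median 0.59). Called members made up 85.7%, 50% and 71.4%, where all genes gave 66.9%, 35.4% and 65% and medians of 0.04, 0 and 0.04. Sepn1, a selenoprotein of the endoplasmic reticulum membrane, was higher in caput than in cauda by 4.03 ± 0.17 (adjusted p = 6.16e-08), and Txnrd3, a thioredoxin-glutathione reductase gene, by 2.23 ± 0.12 (adjusted p = 2.95e-07). Selk was lower there by -1.78 ± 0.07 (adjusted p = 4.57e-08) and Sepx1, a methionine sulfoxide reductase gene, by -1.87 ± 0.11 (adjusted p = 4.90e-07).

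Peroxide is also removed by catalase and the peroxiredoxins, and here too directions were mixed. Of the 7 genes, 1 was higher and 4 lower in caput than in cauda (median -0.78), 2 higher and 2 lower in corpus than in cauda (median -0.14), and 1 higher and 4 lower in caput than in corpus (median -0.68). Shares called were 71.4%, 57.1% and 71.4% of these few genes, beside 66.9%, 35.4% and 65% of all genes, whose medians were 0.04, 0 and 0.04. Cat, the catalase gene, was the one higher in caput in both, at 35.9 and 30.9 RPKM in caput, 17.5 and 16.8 in the corpus and 10.9 and 10.8 in the cauda (1.56 ± 0.10 against cauda, adjusted p = 5.90e-07). Prdx5 ran with Gpx3 and Gpx4, from 96.0 and 87.7 RPKM in caput to 289 and 268 in the corpus and 457 and 388 in the cauda (-2.27 ± 0.10 for caput against cauda, adjusted p = 6.84e-08). No peroxiredoxin reached the level of Gpx3 in any library: the highest value was 753 RPKM, for Prdx1 in cauda 2.

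Among 9 tested genes of 11 whose products generate hydrogen peroxide, 2 were higher and 6 lower in caput than in cauda (median -1.12), 1 higher and 5 lower in corpus than in cauda (median -0.79), and 2 higher and 6 lower in caput than in corpus (median -0.94). These are 88.9%, 66.7% and 88.9% of the list, where 66.9%, 35.4% and 65% of all genes were called with medians of 0.04, 0 and 0.04. Sod2, the mitochondrial superoxide dismutase gene, measured 41.5 and 44.7 RPKM in caput, 101 and 108 in the corpus and 260 and 261 in the cauda (-2.66 ± 0.08 for caput against cauda, adjusted p = 1.29e-08). Nox4, an oxidase gene whose main product is hydrogen peroxide, measured 0.113 and 0.0995 RPKM in caput, 0 and 0.0428 in the corpus and 1.78 and 1.59 in the cauda. Its corpus level was below cauda (adjusted p = 7.80e-05). These lists share libraries with the family's results, and genes listed for principal cells differed between the same regions, as given above.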

How the data were processed

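RNA was measured in 6 libraries of sorted clear cells, 2 per region. The deposited counts are whole reads per gene, made without regard to strand per the names of the deposited files. Tools listed in the submitters' processing notes are STAR, HTSeq and edgeR, without versions, and the build is mm9. The deposited RPKM values are these counts divided by the deposited gene length (bases, unit "other") and by the library total times a factor (0.774 to 1.387), as the values show. Entries that are not genes stayed out: 6.67% to 9.48% of reads lay in no feature, 1.39% to 1.83% were ambiguous and 33.11% to 38.59% had no unique position.

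Counts entered edgeR 4.0.16 (R 4.3.3) with filterByExpr, TMM and robust quasi-likelihood F tests, two-sided, on all 6 libraries with region as the factor (3 residual degrees of freedom). Each SE is approximate: the size of the log2 fold change over the root of its F statistic. Same-region libraries were not copies of each other (chi-square per degree of freedom 9.57 to 17.18 over genes with at least 10 reads). The fit was tested on simulated counts. Alternatives were DESeq2 1.42.0, DESeq2 size factors, library totals, no filter, only the libraries compared, a replicate block, removal of a trend on gene length, and leaving out each library.

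The members and lists were chosen with earlier results of these data known. The rule for named genes took all members, up to 4 called genes per list and comparison with the smallest adjusted p, of which some are described, and per member the 3 genes nearest in pattern among those with at least 10 CPM on average, leaving out predicted genes; 1 gene that the rule names is not reported here. Trim27, Olfr1367 and the marker genes shown by name were chosen after their values were seen. Symbols came from the deposited table.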

Additional observations from a re-analysis of the deposited data

How the results depend on the processing

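Over 13 alternatives, 292 of 311 fold changes of single members kept their direction and their side of the threshold, 6 were newly called, 5 were no longer called and 8 changed sign. Of these, 2 were Gpx1 in caput against cauda, at 0.12 under library totals and 0.27 with the gene length trend removed. The other 6 were Gpx7 in corpus against cauda, which was -0.01 and never called: 0.25 under library totals, 0.03 with the replicate block and with the length trend removed, 0.0 with only the libraries compared, and -0.44 to 0.6 on leaving out 1 library (0.6 without cauda 2, 0.23 without corpus 1). In caput against cauda, 4 members in place of 2 were called higher under library totals and with the length trend removed, and 1 (without cauda 1) to 3 (without caput 1) on leaving out 1 library. In corpus against cauda, 1 to 2 were called higher on leaving out 1 library. The other counts of members called stayed within 1.5 times. Library totals turned the split of all called genes in caput against cauda from 5363 higher and 5218 lower to 9501 and 2564, from 5246 and 5029 to 8438 and 2972 in caput against corpus, and from 2742 and 2850 to 5154 and 1735 in corpus against cauda. The cause was not tested. Fewer than 50 reads per library limit Gpx2 throughout, as they do Gpx7 in corpus and cauda, and Gpx5 and Gpx6 in corpus.

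The labels give each region a library 1 and 2 without saying that the numbers mark shared mice or days. Deviations of the libraries numbered 1 from their region means correlated at 0.14 to 0.28 over 8502 genes. With a replicate block, 2 members were higher and 4 lower in caput against cauda, 2 and 5 in corpus against cauda, and 3 and 3 in caput against corpus, and no member's call changed. Gpx2 in caput against cauda could not be fitted with only the libraries compared, since it did not pass the filter there. Without division by gene length Gpx3 held 60.27% of the family in caput (55.87% per length), 98.65% in corpus and 97.68% in cauda, and Gpx1 held 3.831% in caput (7.589% per length).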
